A study of Mus musculus with 20 samples.

Results

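The mRNA levels of 10 genes that encode cytoplasmic adaptors of amyloid precursor protein (APP) were followed in the cerebral cortex of mice that lack the APP family in excitatory neurons. The 10 genes were chosen by name. They were the Fe65 genes Apbb1, Apbb2 and Apbb3, the X11 (Mint) genes Apba1, Apba2 and Apba3, the JIP1 gene Mapk8ip1, the disabled genes Dab1 and Dab2, and Numb. All 10 were found among the 24421 gene rows of every library, and all 10 passed the filter on low counts in every comparison. RNA-seq libraries of neocortex and hippocampus came from mice 3 months old. Each of the 4 groups (2 genotypes by 2 regions) had 5 libraries, which makes 20. The cTKO mice were homozygous for floxed App, Aplp1 and Aplp2 and carried the Camk2a-Cre transgene, which drives recombination in excitatory neurons of the forebrain after birth, so that all other cell types of the tissue kept the 3 genes. The controls, called wild type in the labels, were littermates with the same floxed genes and without the Camk2a-Cre transgene. All mice were on a hybrid genetic background, and both sexes were used. RNA was extracted with a different kit in each region, so that kit and region cannot be told apart.

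APP and its homologs APLP1 and APLP2 are type I membrane proteins with a short cytoplasmic tail. Adaptors with a phosphotyrosine-binding (PTB) domain dock on a conserved motif of this tail, asparagine-proline-threonine-tyrosine, and link the protein to transport, endocytosis and signaling. Fe65 proteins join the tail to nuclear and cytoskeletal partners, X11 proteins to the presynaptic release machinery, and JIP1 to kinesin and the JNK kinase cascade. DAB1 relays Reelin signals in neurons, DAB2 is a clathrin adaptor of many non-neuronal cells, and NUMB is an endocytic adaptor known for its inhibition of Notch.

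The docking site is shown here as it is written in the 3 deleted genes, because it is where these adaptors bind. The sequences are the last codons of a GENCODE M21 transcript of each gene (GRCm38, which is mm10), read 5′ to 3′ on the coding strand up to and with the stop codon. The 4 codons of the motif are in capitals. All 3 stretches are coding sequence on the minus strand, at chr16:84955331-84955378 (App), chr7:30435293-30435337 (Aplp1) and chr9:31150871-31150918 (Aplp2).
App: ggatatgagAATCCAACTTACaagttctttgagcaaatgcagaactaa
Aplp1: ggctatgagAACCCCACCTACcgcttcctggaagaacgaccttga
Aplp2: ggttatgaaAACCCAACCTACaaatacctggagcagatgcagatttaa
The motif starts 12 codons before the end in App and Aplp2 and 11 codons before the end in Aplp1, with the stop codon not counted.

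Total counts ranged from 12169474 to 25331954 per library, at which 3 counts are worth between 0.123 and 0.247 CPM, the count relative to the library total after TMM scaling. The lowest member value in any library, 7.59 CPM, was far above this limit. The labels were borne out by the targeted genes. In neocortex, App was 1617 ± 123 CPM in controls, against 376 ± 32.04 CPM after deletion (SD, n = 5), and in hippocampus it was 1520 ± 95.7 and 443 ± 11.5 CPM. Aplp1 and Aplp2 were also lower in every cTKO library than in any control library of the same region. Markers of excitatory neurons were abundant in all libraries, with a summed level of 6409 to 10550 CPM over 5 genes. Of 5 markers of hippocampal principal neurons, 4 were higher in control hippocampus than in control neocortex, and none was lower. In cTKO mice 4 were higher and 1, Wfs1, was lower (log2 difference -1.33). Wfs1 was also called higher in cTKO than in control neocortex (log2 change 0.94). Cells of other types were present too, as is usual in whole tissue, and fewer cells of a type and less RNA per cell cannot be told apart in any result here. A few libraries stood apart. Library 5 of cTKO neocortex and library 4 of cTKO hippocampus held the embryonic globin Hbb-y at 192.5 and 121 CPM, against under 1 CPM elsewhere. Library 3 of control hippocampus held the choroid plexus gene Ttr at 2464 CPM. Where leaving them out moved a value by much, the value without them is also given.

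Between genes, levels were compared as CPM per kilobase of exon (union of all annotated exons). In control neocortex Mapk8ip1 was highest at 86.7 ± 3.72 CPM per kb, followed by Apbb1 at 72.7 ± 4.43, Apba2 at 59.5 ± 3.06, Apba1 at 55.1 ± 1.996, Dab1 at 19.1 ± 0.938 and Numb at 15.9 ± 1.01 CPM per kb (SD, n = 5). Apbb2 (7.13 ± 0.334), Apbb3 (6.66 ± 0.295), Apba3 (4.07 ± 0.922) and Dab2 (2.59 ± 0.247 CPM per kb) were the lowest. Neighbours whose libraries overlapped in this group were Apba2 and Apba1, Apbb2 and Apbb3, and Apba3 and Dab2. In control hippocampus the order was the same down to Numb, but Numb was at 6.90 ± 0.150 CPM per kb, where it overlapped with Apbb3 at 6.58 ± 0.315. There the overlapping neighbours were Apbb1 and Apba2, and Numb and Apbb3. The order depends in part on the length used. Per kilobase of coding length Apba1 came before Apba2 and Apbb2 before Numb in all 4 groups, Apba3 in place of Dab2 was the lowest in all 4, and Dab1 came before Apba2 in control hippocampus. The first 6 genes had the same order per kilobase of exon in cTKO mice.

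**Figure D1:**
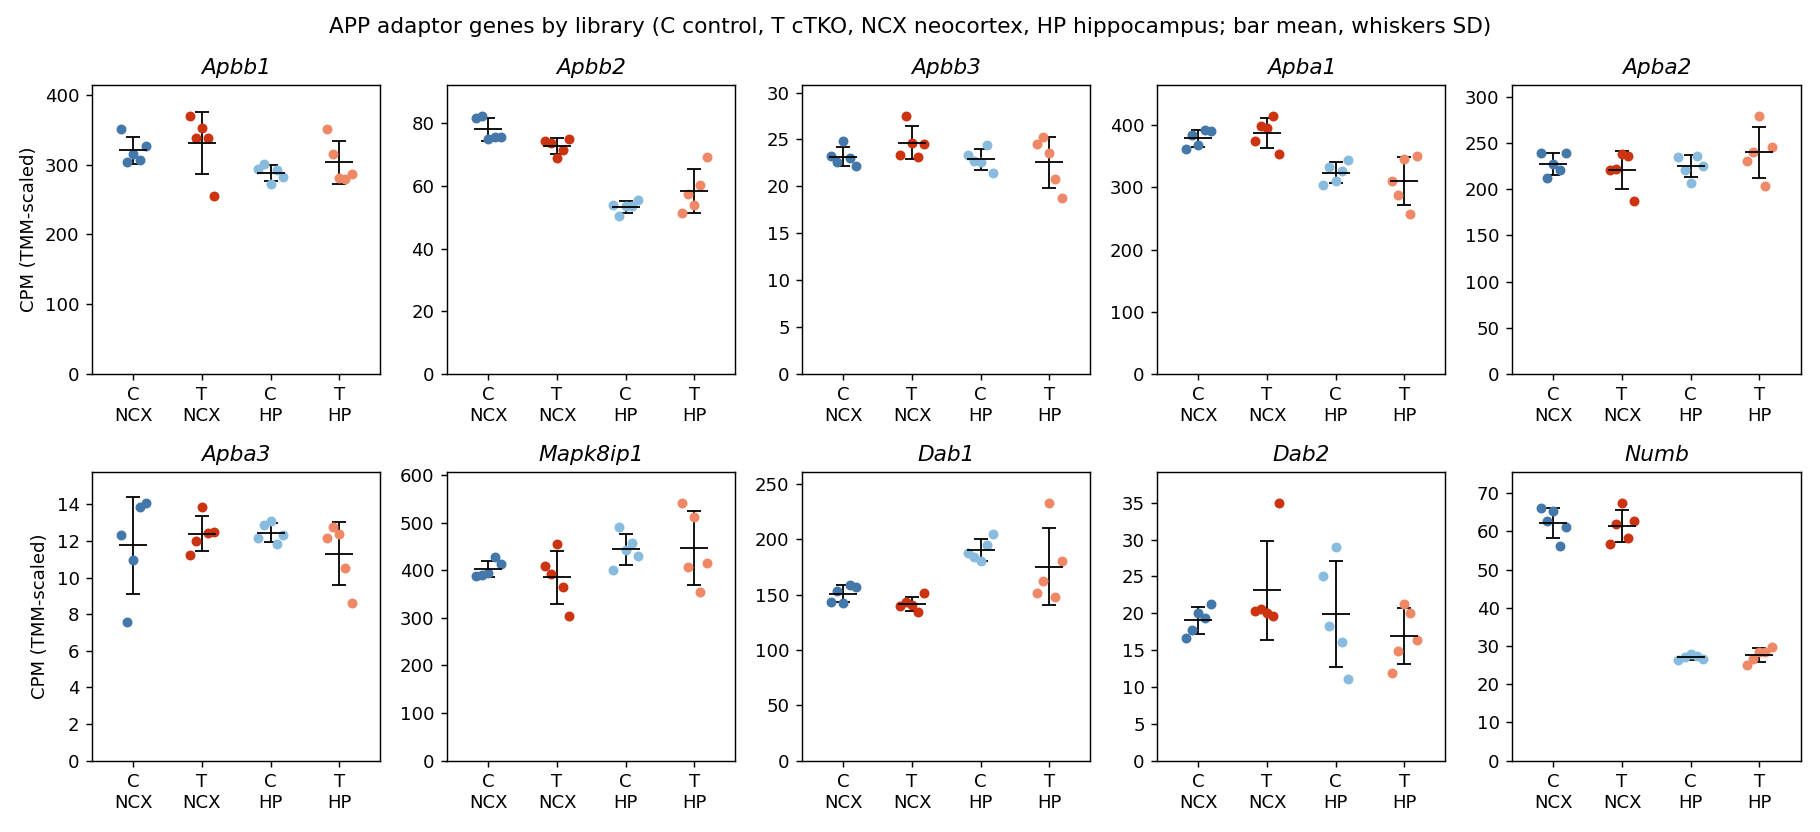
CPM (TMM-scaled, linear axes from 0) of the 10 adaptor genes in 20 libraries. Points are libraries, bars are means and whiskers are SD (n = 5) of control (C) and cTKO (T) mice in neocortex (NCX) and hippocampus (HP). Numb is at 56.2 to 67.5 CPM in all neocortical libraries and at 25.1 to 29.6 CPM in all hippocampal libraries, and Dab2 has 1 high library in cTKO neocortex at 35.0 CPM.

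The first question was whether mRNA of the adaptors changes when the proteins they dock on are removed. None of the 10 genes was called in cTKO neocortex, where 0.188% of the 13843 genes tested were called at an FDR of 0.05 by edgeR's quasi-likelihood test, and 0 of 10 reached an unadjusted p under 0.05, which 10.4% of genes did. The adjusted p ranged from 0.559 to 0.965. Nor was any of the 10 called in cTKO hippocampus, where 0.489% of 13702 genes were called and 12% had an unadjusted p under 0.05, a level that 0 of 10 reached. There the adjusted p ranged from 0.551 to 0.992. All 11 other settings and all 10 fits that left out a library also called 0 of 10 in each region, DESeq2's Wald test included. The setting without the globin library is the same fit as 1 of those 10. A missed threshold does not show that levels were the same, and the 95% confidence intervals give the changes that the data allow. Apart from Dab2, the widest intervals reached from -0.24 to 0.39 in neocortex and from -0.38 to 0.30 in hippocampus on the log2 scale. The median log2 fold change of the 10 genes was 0.012 in neocortex and -0.0060 in hippocampus, beside 0.0090 and 0.0049 over all genes tested.

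**Figure D2:**
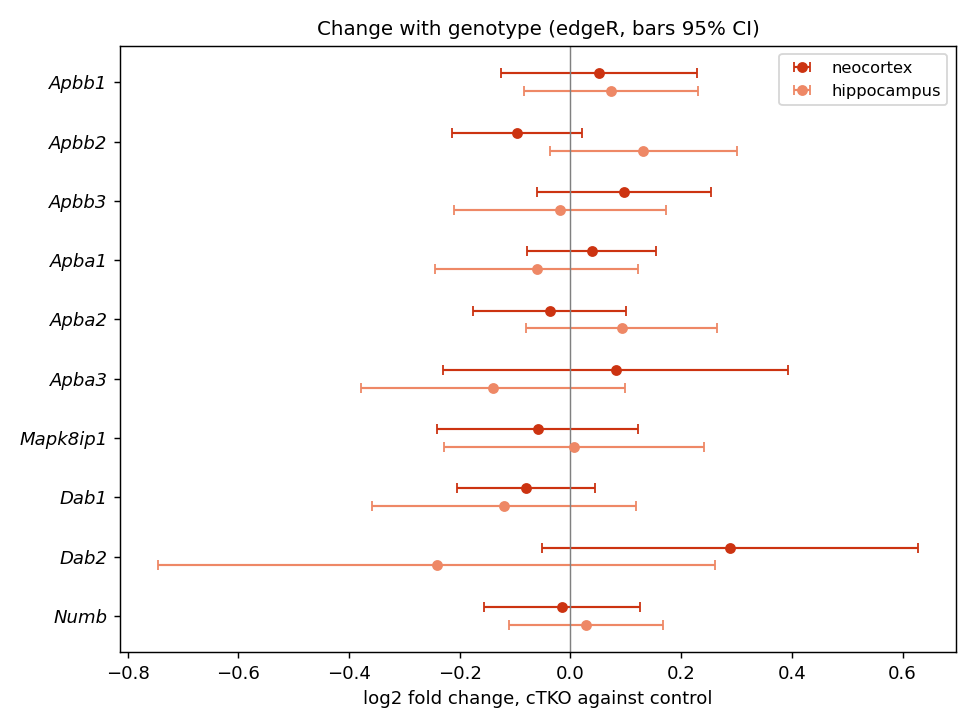
Log2 fold change of each adaptor gene between cTKO and control mice in neocortex and hippocampus. Points are edgeR estimates and bars are 95% confidence intervals (5 libraries per genotype). All 20 intervals cross 0, from -0.24 to 0.29 for the point estimates, and those of Dab2 are the widest.

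The second question was how the adaptors differ between the regions. The main fits took the libraries as independent, although each mouse gave both regions. In controls 6 of the 10 genes were called, close to the 59.1% of 13832 genes that were called in this comparison, so the count is near the background. Numb, Apbb2, Apba1 and Apbb1 were lower in hippocampus (4 of 10, beside 29.2% of all genes), and Dab1 and Mapk8ip1 were higher (2 of 10, beside 29.8%). The same number, 6 of 10, had an unadjusted p under 0.05, beside 63.2% of genes. In cTKO mice 3 of the 10 were called, beside 41.3% of 13846 genes. These were Numb, Apbb2 and Apba1, all lower in hippocampus (21.1% of genes), while 0 of 10 were higher (20.2%). An unadjusted p under 0.05 was reached by 5 of 10, beside 48.9% of genes. Libraries of the regions did not overlap for 5 genes in controls (44.2% of all genes) and for 2 genes in cTKO mice (28.8%). Numb stood out by size, since only 6.2% of genes had a larger difference in controls and 5.92% in cTKO mice.

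**Figure D3:**
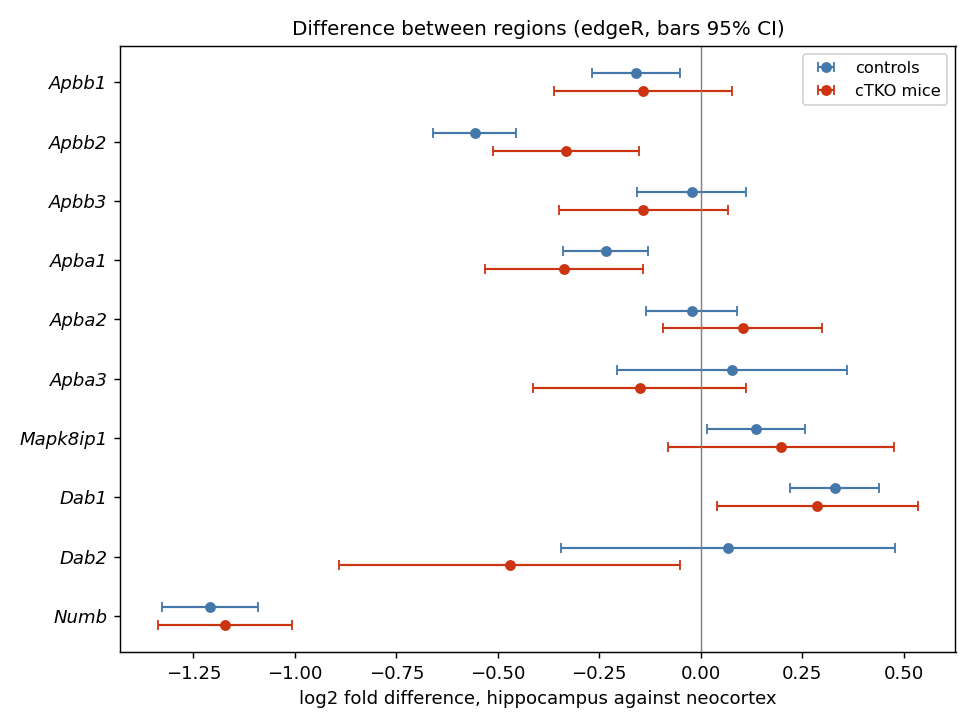
Log2 fold difference between hippocampus and neocortex for each adaptor gene, in controls and in cTKO mice. Points are edgeR estimates and bars are 95% confidence intervals (5 libraries per region), from fits that were not paired by mouse. Numb lies at -1.21 in controls and -1.17 in cTKO mice, and the other 9 genes lie between -0.56 and 0.33.

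Apbb1 encodes FE65, the neuronal member of its family, and made up most of the Fe65 mRNA, with 84.0% ± 0.807 of the summed CPM per kb of the family in control neocortex and 85.1% ± 0.561 in control hippocampus (SD, n = 5). In neocortex its level was 351, 303, 315, 307 and 327 CPM in the controls, and the cTKO libraries had 370, 338, 353, 338 and 255 CPM. Library 5 was the lowest of all 10 and the other 4 cTKO libraries lay in or above the upper part of the control range. The log2 fold change with genotype was 0.05 (95% CI -0.13 to 0.23, adjusted p = 0.883, edgeR). Between the regions, control hippocampus had 294, 300, 272, 293 and 283 CPM. All 5 values were below those of control neocortex. The difference was small, -0.16 on the log2 scale (SE 0.051, adjusted p = 0.0134). It was no longer called without a filter on low counts (adjusted p = 0.0526) or in a single fit of all 20 libraries (0.129). In cTKO mice the difference was -0.14 (95% CI -0.36 to 0.077) and was not called.

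Apbb2 encodes FE65L1, a more widely expressed family member. In neocortex it was at 81.9, 82.4, 75.1, 75.8 and 75.7 CPM in the controls and at 74.5, 73.8, 68.8, 71.5 and 75.0 CPM in the cTKO libraries. The genotypes did not overlap, but the highest cTKO library and the lowest control library differed only in the fourth digit, 75.01 against 75.05 CPM. It was the only adaptor gene without overlap in a comparison of genotypes, beside 2.36% of all genes in neocortex and 3.13% in hippocampus. The exact two-sided permutation test gave p = 0.00794, the smallest that 252 splits allow, for a mean difference of -0.10 in log2 CPM. The edgeR estimate was -0.097 (SE 0.055), with an unadjusted p of 0.0987 and an adjusted p of 0.574, and with CPM on raw library totals the permutation test gave no member with p under 0.05. In hippocampus the estimate went the other way, 0.13 (95% CI -0.037 to 0.30), with 51.3, 57.6, 54.0, 60.4 and 69.2 CPM in cTKO mice around or above the 50.3, 53.5, 53.6, 54.1 and 55.5 CPM of controls in ascending order. The difference between regions was clear in both genotypes. In controls Apbb2 was 0.680 times as high in hippocampus as in neocortex (log2 -0.56, SE 0.048, adjusted p = 1.28e-07, edgeR), and in cTKO mice 0.795 times as high (log2 -0.33, SE 0.083, adjusted p = 0.00672). Both calls held in all 21 alternatives.

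Apbb3, which encodes FE65L2, was low and even. It ranged from 18.8 to 27.5 CPM over the 20 libraries, and no comparison was called. Its gene (chr18:36671154-36679366, minus strand) overlaps Slc35a4 on the other strand, and reads that fall in the overlap may be assigned to either gene or to none, since the use of strand in the counting is not given in the sources used here. As a share of Fe65 mRNA per kb, Apbb2 made up 8.25% ± 0.491 in control neocortex and 6.35% ± 0.378 in control hippocampus, while Apbb3 made up 7.72% ± 0.512 and 8.57% ± 0.357. The order of these 2 genes depends on the length. Per kilobase of coding length Apbb2 made up 17.1% ± 0.909 and 13.4% ± 0.740, above Apbb3 in both regions (7.93% ± 0.510 and 8.995% ± 0.365), and Apbb1 was at 75.0% ± 1.13 and 77.6% ± 0.842.

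Apba1 and Apba2 encode the neuronal X11α and X11β (Mint1 and Mint2), adaptors of the presynaptic terminal. X11α forms a complex with CASK and Lin7. Apba1 was at 362, 384, 367, 392 and 391 CPM in control neocortex and at 304, 333, 310, 327 and 345 CPM in control hippocampus. The regions did not overlap, and hippocampus was lower by 0.23 on the log2 scale (fold 0.850, SE 0.049, adjusted p = 0.000788, edgeR). In cTKO mice it was at 374, 399, 396, 415 and 353 CPM in neocortex and at 309, 288, 346, 258 and 350 CPM in hippocampus. Again all hippocampal libraries were lower, by a narrow margin, with a log2 difference of -0.34 (SE 0.090, adjusted p = 0.00963). The 2 calls held in all 21 alternatives each. With genotype, Apba1 differed by 0.038 (95% CI -0.078 to 0.15) in neocortex and by -0.061 (95% CI -0.24 to 0.12) in hippocampus.

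Apba2 was not called between regions in either genotype. It had 212 to 239 CPM in the neocortex of controls and 207 to 236 CPM in their hippocampus, with a log2 difference of -0.022 (95% CI -0.13 to 0.090). In cTKO mice it ranged from 187 to 238 CPM in neocortex and from 204 to 279 CPM in hippocampus. Apba1 made up 46.4% ± 1.91 of the X11 total per kb in control neocortex and 42.7% ± 1.64 in control hippocampus, with ranges of 44.0% to 49.0% and 40.2% to 44.2% that just met. In cTKO mice its share was 46.2% to 49.1% in neocortex and 38.4% to 43.1% in hippocampus, without overlap. Per kilobase of coding length the share of Apba1 was larger, 58.2% ± 1.86 in control neocortex and 54.4% ± 1.68 in control hippocampus. Apba3, which encodes the ubiquitous X11γ, was the minor gene, with 3.42% ± 0.692 and 3.92% ± 0.292 of the total per kb in the controls. It lay between 7.59 and 14.1 CPM over all libraries, and both extremes were control neocortex. Apba3 was not called in any comparison. Its gene (chr10:81266960-81273246, plus strand) overlaps Tjp3 on the other strand.

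Mapk8ip1 encodes JIP1, a scaffold for the JNK cascade and a cargo adaptor of kinesin-1. Control neocortex had 388, 391, 393, 428 and 413 CPM and control hippocampus 401, 490, 443, 456 and 430 CPM. The regions overlapped. Hippocampus was higher by 0.14 on the log2 scale (fold 1.10, SE 0.056), with an adjusted p that rounds to 0.05 and lay just under it. This call was kept in 8 of 21 alternatives, with an adjusted p of 0.0138 to 0.270, so that it turned on the settings. The call was lost when any of libraries 2, 3 and 4 of control hippocampus or 1, 2, 3 and 5 of control neocortex was left out, and the difference was smallest (0.10) without library 2 of control hippocampus. The cTKO libraries were more scattered, at 408, 393, 455, 364 and 303 CPM in neocortex and 542, 407, 512, 354 and 416 CPM in hippocampus. With genotype the changes were -0.059 (95% CI -0.24 to 0.12) in neocortex and 0.0063 (95% CI -0.23 to 0.24) in hippocampus. The gene (chr2:92383676-92401263, minus strand) overlaps 1700029I15Rik on the other strand.

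Dab1 encodes the adaptor that is phosphorylated when Reelin binds its receptors ApoER2 and VLDLR. In controls it was at 144, 153, 142, 158 and 157 CPM in neocortex and at 188, 184, 181, 195 and 205 CPM in hippocampus. The regions were separate, and hippocampus was 1.26 times as high (log2 0.33, SE 0.051, adjusted p = 5.69e-05, edgeR), a call that held in all 21 alternatives. In cTKO mice it was at 140, 144, 141, 134 and 152 CPM in neocortex and at 152, 163, 233, 148 and 181 CPM in hippocampus. Library 3 of cTKO hippocampus was the highest of all 20. The log2 difference between regions there was 0.29 (SE 0.11) with an adjusted p of 0.0594. It was called in 9 of 21 alternatives, DESeq2 and the fits without library 1 (0.33) or library 4 (0.35) of cTKO hippocampus included, and without library 3 it was 0.17 (adjusted p = 0.0910). Without the 2 libraries with embryonic globin it was 0.37 (adjusted p = 0.02895). With genotype, Dab1 gave -0.081 (95% CI -0.21 to 0.044) in neocortex and -0.12 (95% CI -0.36 to 0.12) in hippocampus. In neocortex the exact permutation test gave p = 0.0556.

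Dab2 varied most between libraries of the same group, with a pooled SD of 0.372 in log2 CPM, against 0.0842 for Numb. It was at 16.7, 17.7, 20, 19.4 and 21.3 CPM in control neocortex and at 20.3, 20.6, 20.01, 19.7 and 35.0 CPM in cTKO neocortex. Only library 5 of cTKO neocortex stood out. In hippocampus the controls spread from 11.1 to 29.0 CPM (25.1, 18.3, 29.0, 16.1 and 11.1 CPM), and the cTKO libraries, at 11.9, 14.9, 21.2, 19.99 and 16.3 CPM, lay within that range. The log2 change with genotype was 0.29 (95% CI -0.052 to 0.63) in neocortex and -0.24 (95% CI -0.74 to 0.26) in hippocampus. Without library 5 of cTKO mice, the change in neocortex was 0.085. In hippocampus it ran from -0.39 to -0.066 with a library left out, and was nearest to 0 without library 3 of the controls, the library with the most Ttr. Between regions Dab2 differed by 0.067 (95% CI -0.34 to 0.48) in controls and by -0.47 (95% CI -0.89 to -0.051, adjusted p = 0.0695) in cTKO mice. The latter was called in 3 of 21 alternatives (DESeq2, the Xist covariate and without library 3 of cTKO hippocampus, -0.55), and was -0.27 (adjusted p = 0.173) without library 5 of cTKO neocortex.

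Markers of meninges and choroid plexus were high in some of the libraries with high Dab2. The summed level of 5 markers of meningeal fibroblasts was 211 CPM in library 5 of cTKO neocortex and 64.9 to 88.5 CPM in the other 4 libraries of that group. This library 5 also held the embryonic globin Hbb-y at 192.5 CPM. In control neocortex the fibroblast sum was 48.3 to 76.7 CPM. In control hippocampus it was highest in library 1 (222 CPM) and lowest in library 5 (105 CPM), which also had the lowest Dab2. The summed level of 5 choroid plexus markers was 2687 CPM in library 3 of control hippocampus, which had the highest Dab2 of its group, and 76.0 CPM in library 5. In cTKO hippocampus the choroid plexus sum and Dab2 did not go together. This sum was highest in library 5 (594 CPM), with Dab2 at 16.3 CPM, and was 141 CPM in library 3, with the highest Dab2 of its group. The fibroblast sum of that group was lowest in library 1 (93.0 CPM), which also had its lowest Dab2. It was highest in library 4 (181 CPM), and was 144 CPM in library 3. Over 4 markers of border macrophages the sum was 14.8, 7.77, 14.03, 9.17 and 4.65 CPM in control hippocampus, and 13.6 CPM in library 5 of cTKO neocortex against 9.22 to 10.8 CPM in the others of that group. In cTKO hippocampus it was 6.68, 9.33, 12.8, 12 and 6.27 CPM. There it was highest in library 3, as was Dab2, but lowest in library 5, while Dab2 was lowest in library 1. None of the fibroblast or border macrophage markers was called between genotypes in either region. Their median log2 changes in neocortex were 0.56 and 0.31, beside 0.0090 over all genes. In hippocampus they were -0.16 and -0.12, beside 0.0049. The single fibroblast markers went different ways. Their changes ran from -0.29 (Slc6a13) to 1.70 (Col1a1) in neocortex and from -0.98 (Slc6a13) to 0.98 (Col1a1) in hippocampus. Between the regions of controls, the fibroblast and choroid plexus sums did not go with Dab2. The fibroblast sum was 48.3 to 76.7 CPM in neocortex and 105 to 222 CPM in hippocampus. The choroid plexus sum was 9.23 to 14.5 CPM and 76.0 to 2687 CPM. Mean Dab2 was 19.0 and 19.9 CPM (log2 difference 0.067, not called). The border macrophage sum overlapped, at 7.89 to 11.2 CPM and 4.65 to 14.8 CPM. The part of all these cells in the Dab2 values was not tested. By the rule for likeness (Pearson's r of log2 CPM centred on the group mean, over 20 libraries and 14192 genes), the genes most like Dab2 were Igf2 (0.943), Gstm2 (0.938) and Heg1 (0.902). Igf2, a growth factor gene expressed in meninges and choroid plexus, was at 373 CPM in library 5 of cTKO neocortex and at 58.7 to 118 CPM in the others of its group. In cTKO hippocampus Igf2 was highest in library 4 (234 CPM), the other library with embryonic globin, while Dab2 was highest in library 3. Without the 2 libraries with embryonic globin the r of Igf2 was 0.932. Both genes of a pair share the library and its depth at each point.

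**Figure D4:**
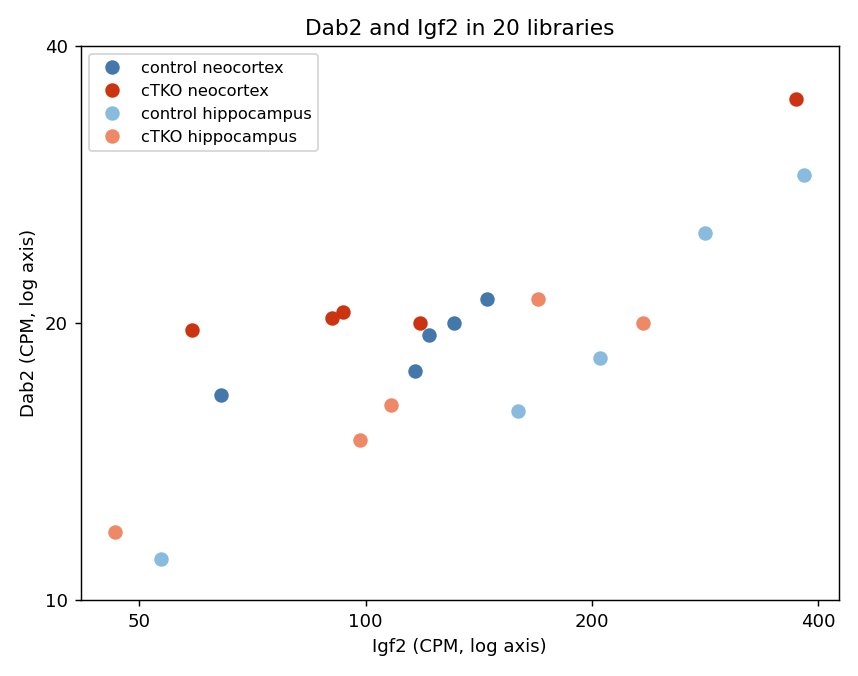
Dab2 against Igf2 in CPM, both on log axes, with each point a library (5 in each of 4 groups). The highest Dab2 value, 35.0 CPM in library 5 of cTKO neocortex, comes with Igf2 at 373 CPM, and the lowest, 11.1 CPM in library 5 of control hippocampus, with Igf2 at 53.4 CPM.

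Numb carried the largest difference of the 10 genes. In controls it was at 66.1, 62.7, 65.3, 56.2 and 61.1 CPM in neocortex and at 26.3, 27.1, 27.8, 27.3 and 26.6 CPM in hippocampus. In cTKO mice it was at 56.6, 61.9, 67.5, 58.2 and 62.6 CPM in neocortex and at 25.1, 26.5, 28.3, 28.3 and 29.6 CPM in hippocampus. The lowest neocortical library was above the highest hippocampal library by a wide gap in both genotypes. Hippocampal Numb was 0.433 times the neocortical level in controls (log2 -1.21, SE 0.055, adjusted p = 1.16e-10, edgeR) and 0.444 times in cTKO mice (log2 -1.17, SE 0.076, adjusted p = 2.32e-07). These calls held in all 21 alternatives each, with a log2 difference of -1.25 to -1.19 in controls and -1.20 to -1.13 in cTKO mice. Between genotypes the log2 change of Numb was -0.014 (95% CI -0.16 to 0.13) in neocortex and 0.028 (95% CI -0.11 to 0.17) in hippocampus.

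Numbl, the paralog of Numb, was not called between regions in either genotype. It was at 135 ± 10.5 CPM in the neocortex of controls and 147 ± 10.3 CPM in their hippocampus (SD, n = 5). The ratio of Numb to Numbl CPM within a library was 0.404 to 0.511 in control neocortex and 0.171 to 0.211 in control hippocampus. It was 0.341 to 0.559 in cTKO neocortex and 0.121 to 0.198 in cTKO hippocampus. The regions were apart in both genotypes and the genotypes overlapped in both regions.

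**Figure D5:**
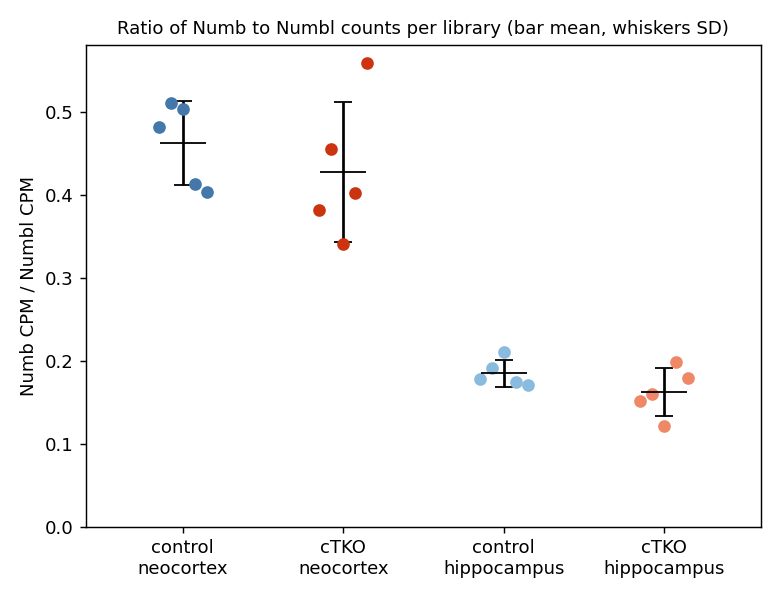
Ratio of Numb CPM to Numbl CPM in each library of control and cTKO mice (linear axis from 0). Points are libraries, bars are means and whiskers are SD (n = 5). The ratio is 0.341 to 0.559 in neocortex and 0.121 to 0.211 in hippocampus.

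The sequence just before the most upstream start of Numb is printed because Numb has the largest difference. It covers 250 bases at chr12:83921935-83922184 on the minus strand (RefSeq, GRCm38.p6) and ends at the base before the start, which matches the start of a GENCODE transcript. CpG dinucleotides are in capitals.
Numb: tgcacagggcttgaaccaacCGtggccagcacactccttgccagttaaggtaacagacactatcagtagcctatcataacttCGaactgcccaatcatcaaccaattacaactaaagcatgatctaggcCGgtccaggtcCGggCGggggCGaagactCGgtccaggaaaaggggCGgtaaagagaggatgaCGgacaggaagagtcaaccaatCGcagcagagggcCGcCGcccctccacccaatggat
It holds 12 CpG, against a median of 6 over 32851 promoters of the same length, and 66.5% of these hold fewer. Of 5 short motifs searched on both strands, CCAAT and GGGCGG were present, as in 33.8% and 32.7% of all these promoters, while TATAAA (12.4%), CAGATG (14.4%) and TGACGTCA (1.55%) were not found in these letters. RefSeq entries were matched for 8 of the 10 genes.

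Whether the effect of genotype differed between the regions was tested directly by the interaction of region and genotype over all 20 libraries. This fit took the libraries as independent, although each mouse gave both regions. None of the 10 genes was called, beside 0.0564% of 14192 genes, and the adjusted p was 0.9999 for each. A single gene, Apbb2, had an unadjusted p under 0.05 (0.0180, log2 difference of the changes 0.24, 95% CI 0.045 to 0.43), a level that 3.75% of all genes reached. The interval of Dab2 was wide, from -1.14 to 0.10.

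Partners of the adaptors were taken from 6 lists with 77 entries, all of them tested. In neocortex no entry was called between genotypes by the quasi-likelihood test, although 4 of 11 other settings (the exact and likelihood ratio tests, DESeq2 and the fit without the globin library, number 5 of cTKO neocortex) and the fit without library 3 of cTKO neocortex called 1 gene of the Reelin list. DESeq2 also called 1 JIP partner, and the fit without library 3 of cTKO neocortex called 1 X11 partner. In hippocampus 2 were called. Kif17, a kinesin of dendritic transport and 1 of 11 X11 partners, was 1.48 times as high in cTKO mice (log2 0.56, SE 0.11, adjusted p = 0.0434, edgeR). Ap2a2, a subunit of the clathrin adaptor AP-2 and 1 of 17 genes of Numb, Notch and endocytosis, was 1.22 times as high (log2 0.29, SE 0.052, adjusted p = 0.0302). Between genotypes in hippocampus 0.314% of all genes were called higher. With a library left out, the count of called X11 partners was 0 in 8 of 10 fits, namely without any control library or library 1, 2 or 3 of cTKO hippocampus. That of the Numb list was 0 in 6 of 10 fits, without library 1, 2, 4 or 5 of the controls or library 1 or 2 of cTKO hippocampus. Under the other settings the count was 0 to 2 for the X11 partners, 0 to 3 for the Numb list and 0 to 1 for the other genes whose proteins bind the APP tail. The median log2 change was 0.041 over the X11 partners and 0.023 over the Numb list, beside 0.0049 over all genes.

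Between regions many partners were called. Over all genes, 29.2% were called lower and 29.8% higher in the hippocampus of controls, and 21.1% lower and 20.2% higher in that of cTKO mice. The X11 partners were mostly lower in control hippocampus, with 7 of 11 lower and 2 higher and a median log2 difference of -0.57, beside 0.012 over all genes. Stx1a, a syntaxin of the synaptic vesicle fusion complex, had a log2 difference of -1.80, and Lin7c, a partner of CASK, had 0.87. In cTKO mice 6 were lower and 2 higher, with a median of -0.36, beside -0.0028 over all genes.

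Of 12 JIP partners, 6 were lower and 1 was higher in control hippocampus, with a median of -0.17. The JNK genes Mapk9 (-0.58) and Mapk8 (-0.44) and the kinesin light chain gene Klc2 (-0.45) were among them. In cTKO mice 4 were lower and none was higher (median -0.10). Of 15 genes of the Reelin and Dab1 pathway, 8 were higher and 5 were lower in control hippocampus (median 0.18). The GTPase gene Rap1a was higher by 0.71 and the PI3-kinase subunit gene Pik3r1 was lower (-0.82). Reln itself was lower too (-0.82, adjusted p = 7.23e-06). In cTKO mice 7 were higher and 4 lower (median 0.18).

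Of the 17 genes of Numb, Notch and endocytosis, 6 were higher and 7 lower in control hippocampus (median -0.031). Lnx1, a ubiquitin ligase that acts on Numb, was lower (-1.23), and Eps15, an endocytic scaffold, was higher by 0.58. In cTKO mice 3 were higher and 4 lower (median -0.056). Of 7 Fe65 partners, 2 were lower and 1 was higher in control hippocampus (median -0.057), led by the endocytic receptor gene Lrp1 at -0.81. In cTKO mice 2 were lower (median -0.038). Of 15 other genes whose proteins bind the APP tail, 4 were higher and 3 lower in controls (median 0.032), with Klc1 at -0.35 and Shc3 at -0.57 among the lower, and 3 were higher and 2 lower in cTKO mice (median 0.023).

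Cell-type markers also moved between the regions. The summed level of 5 astrocyte markers was 1125 to 1323 CPM in the neocortex of controls and 1891 to 2394 CPM in their hippocampus (4 genes higher and 1 lower), and that of 6 markers of inhibitory neurons was 887 to 1023 and 722 to 904 CPM. The 5 oligodendrocyte markers, at 3575 to 4723 and 4190 to 6203 CPM, overlapped, with 1 higher, 1 lower and 3 not called. All 5 markers of striatal neurons were lower in hippocampus, with sums of 248 to 369 CPM in neocortex and 81.7 to 108 CPM in hippocampus and a median log2 difference of -2.28. The choroid plexus sum was 9.23 to 14.5 and 76.0 to 2687 CPM, and 4 of the 4 genes tested were higher (median 3.94). In cTKO mice the striatal markers were also lower (5 of 5) and those of choroid plexus higher (4 of 4 tested), and none of the 5 oligodendrocyte markers was called. The part of all these cells in the differences of the adaptors between regions was not tested.

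The spread between libraries was wider in cTKO mice for most genes. In hippocampus 9 of the 10 adaptors had a larger SD of log2 CPM in cTKO mice than in controls, as had 74.3% of genes, and without the library with embryonic globin it was again 9 of 10, beside 68.4%. In neocortex the count was 7 of 10, beside 70.8% of genes, and without the library with embryonic globin it was 4 of 10, beside 62.2%. Apba3 and Mapk8ip1 were the other 2 genes with the largest within-group SD, 0.224 and 0.178 in log2 CPM. The genes most like Apba3 were Anks3 (r = 0.828), Mydgf (0.769) and Il1r1 (0.749), and those most like Mapk8ip1 were Acsbg1 (0.946), Hey1 (0.940) and Rell2 (0.939), over the same 20 libraries. These are the highest of 14192 genes searched. How high r gets by chance in such a search was not tested, for these 2 genes or for Dab2.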

How the data were processed

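Poly-A RNA of 20 samples was sequenced as 100-bp single-end reads. Alignment to mm10 was done by the authors with STAR 2.5.4a and counting with HTSeq, whose version and strand setting are not given in the sources used here, and raw counts per gene symbol and library were deposited. Groups follow the labels, and each mouse gave both regions. The text names all 10 members, the partners called (between regions, at most the 3 with the lowest p in a list) and the 3 nearest genes of the 3 most variable members. The result of 1 partner gene is not reported here. The members and lists were chosen with earlier results of these data known.

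Genes with CPM above 1 in at least 5 libraries of a fit were scaled by TMM and tested with edgeR 4.0.16 (quasi-likelihood, R 4.3.3), with Benjamini-Hochberg adjustment over all genes tested and an FDR of 0.05. SE and 95% CI were derived from the F statistic. The region by genotype interaction used all 20 libraries. Single genes were compared with exact two-sided permutation tests of log2 CPM (prior count 2). The limit of 3 counts covers counting error only. The procedures were tested on simulated data. Plots used matplotlib 3.10.9 and pandas 2.3.3.

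Library numbers were checked as pairs. Xist was on the same side in both regions for 10 of 10 numbers, controls and cTKO mice together. Between regions in controls, deviations of same-numbered libraries correlated at 0.130 to 0.335 in all 5 pairs. In cTKO mice 3 of 5 pairs were above 0.1 (-0.0713 to 0.396). The highest correlation there, 0.575, was between different numbers, so the correlations do not show pairing in cTKO mice. Between genotypes 3 of 5 same-numbered pairs were above 0.1 in neocortex (-0.00912 to 0.221, against at most 0.137 between different numbers). In hippocampus 1 of 5 was (-0.137 to 0.14, against at most 0.181), so this check does not settle whether the numbers pair between genotypes. The alternatives were edgeR's exact and likelihood ratio tests, DESeq2 1.42.0, a robust fit, DESeq2's size factors, no filter, filterByExpr, all 20 libraries together, the library number as a block, a covariate for Xist, and leaving out single libraries. Leaving out the libraries with embryonic globin or the most Ttr was added after seeing the data. Between genotypes the globin setting repeats a fit that left out a single library. The Ttr setting does so between regions in controls. In those comparisons the 21 alternatives hold that fit more than once.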

Additional observations from a re-analysis of the deposited data

Results flagged for a closer look

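Of 40 groups of 5 libraries (10 genes in 4 groups), 2 held a library that lay far from the others by Dixon's test, and chance gives about 1 in 20. Both were library 5 of cTKO neocortex. Apbb1 was lowest there at 255 CPM, with the next library at 338 CPM. Dab2 was highest there at 35.0 CPM, with the next library at 20.6 CPM. The same library held embryonic globin at 192.5 CPM of Hbb-y. Without it, the log2 change of Apbb1 with genotype in neocortex was 0.12 in place of 0.05, and that of Dab2 was 0.085 in place of 0.29, and neither was called with or without it.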

How the results depend on the processing

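The calls of Numb, Apbb2 and Apba1 between regions in both genotypes and of Dab1 in controls held in every alternative, and 0 of 10 genes were called between genotypes or for the interaction in any. Between regions in cTKO mice, DESeq2 and the Xist covariate each called 5 members in place of 3. With the replicate block the calls between regions stayed at 6 in controls and 3 in cTKO mice, and at 0 between genotypes. The block ended the calls of Kif17 and Ap2a2 (0 called in either list).

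By permutation, 1 member had p under 0.05 in neocortex between genotypes, 0 on raw library totals and 1 to 3 with a library left out, and 0 in hippocampus, with 0 to 1. The sign-flip test of the replicate block gave 0 in every comparison, as its smallest p with 5 pairs is 0.0625.

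Sign changes were limited to differences near 0 that were not called. Between genotypes without the libraries with embryonic globin, Apba2 was at 0.0081 and Mapk8ip1 at 0.0069 in neocortex, and Apbb3 at 0.0046 in hippocampus. Mapk8ip1 in hippocampus was at -0.0035 with filterByExpr and -0.0085 with the replicate block. Without the library with the most Ttr, Apba2 was at 0.0083 and Dab2 at -0.11 between regions in controls. The interaction without the globin libraries was -0.028 for Apbb1 and 0.046 for Dab1. With a library left out, log2 values between genotypes in neocortex ran from -0.066 to 0.0081 (Apba2), -0.044 to 0.15 (Apba3), -0.12 to 0.0069 (Mapk8ip1) and -0.048 to 0.012 (Numb). In hippocampus they ran from -0.062 to 0.041 (Apbb3) and -0.078 to 0.073 (Mapk8ip1). Between regions in controls they ran from -0.050 to 0.0083 (Apba2), -0.051 to 0.15 (Apba3), -0.044 to 0.0050 (Apbb3) and -0.11 to 0.22 (Dab2). For the interaction they ran from -0.060 to 0.058 (Apbb1), -0.16 to 0.012 (Dab1) and -0.022 to 0.14 (Mapk8ip1).

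Over all genes, the count called between genotypes was 12 to 221 in neocortex and 58 to 331 in hippocampus under the other settings, in place of 26 and 67, and 7 to 133 and 15 to 149 with a library left out. For the interaction it was 8 to 26 in place of 8, and 5 to 20 with a library left out.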
